A study of Mus musculus with 2 samples.

Results

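The glucocorticoid-responsive genes described here are the receptor gene Nr3c1 and 9 genes known to respond to glucocorticoids, namely Fkbp5, Tsc22d3, Sgk1, Klf9, Ddit4, Txnip, Errfi1, Tgm2 and Il1r2. They were taken from 2 mouse Agilent arrays as every probe outside the controls whose gene name in the array files is one of these symbols, which gave 20 probes for 10 genes out of 56605 probes for 37074 gene names. The study hybridised blood RNA of 1 heated and 1 control sample to 1-colour arrays and asked which genes heat affects. The labels describe the heated sample as pretreated for 1 h at 37 °C in a water bath, then held at 38.5 °C for 1 h. For the control sample they give no temperature and no time. Strain, sex and age are not given in the sources used here, nor is it said whether animals or drawn blood were heated. RNA of both samples was prepared with lysis of red cells and depletion of globin transcripts. The labels' protocols speak of 3 replicates per line, but with 1 array for each group here, differences are given without p-values and were not checked against replicates.

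Glucocorticoids are steroid hormones of the adrenal cortex that are released under stress. They enter cells and bind the glucocorticoid receptor, which waits in the cytosol in a complex with the chaperone HSP90 and its partners, moves to the nucleus and binds DNA at glucocorticoid response elements. In macrophages and other blood leukocytes the receptor raises genes that restrain signalling, such as Tsc22d3 and Fkbp5, and lowers inflammatory cytokine genes. The receptor shares its HSP90 machinery with the heat shock response.

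The labelled tissue was checked against markers of blood cells. All 8 monocyte and macrophage markers, such as Lyz2 (lysozyme) and Csf1r (a growth factor receptor), were well above background on both arrays. The log2 of their summed signals, without scaling and with each gene's brightest probe, was 19.20 in the heated and 19.22 in the control sample. Of the 8 red cell markers 2 were well above background, of the 6 platelet markers 1, and of the 8 neutrophil markers 6. For T cells 7 of 8 markers were on the array and 5 passed, and for B cells 5 of 6 and 1. In the heated sample, passing T cell markers had signals from 59.4 to 21059, and passing neutrophil markers from 104 to 51463. Hbb-b1 and Alas2 of red cells, Itga2b of platelets, Ms4a1 of B cells, Cd8a of T cells and Ly6g and Cxcr2 of neutrophils were not well above background on either array. NK cell markers passed in 3 of 6 cases with heat and in 2 for the control. Prf1 (perforin) among them had a log2 difference of -1.68, from 1 probe with signals of 46.0 in the heated and 151.6 in the control sample. Klrb1c, the other NK cell marker with a difference, had -0.0050. In RNA of mixed cells, fewer cells of a type and less RNA per cell cannot be told apart. The pair of arrays shared a slide and a scan.

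Sequences are shown where they help to place a value. The promoter windows of RefSeq (build GRCm38.p6), which reach from 250 bases before to 50 bases after a start site, were searched for the hexamer AGAACA of glucocorticoid response elements, which reads TGTTCT on the other strand, and for a 15-base element made of AGAACA, any 3 bases and TGTTCT, which contains the hexamer. The 15-base element was present in 3 of 32851 windows, and 1 of these belongs to Sgk1. The hexamer was present in 19.0% of all windows. The table held 16 windows of 8 members, and 4 of them had the hexamer, 3 from Sgk1 and 1 from Tsc22d3. Nr3c1 and Tgm2 had no entry. Each promoter below is the 250 bases before a start site, shown because it holds a match in a gene with a difference above 0. Sgk1 lies at chr10:21993640-21993889 on the plus strand, with the 15-base element in capitals, 189 to 175 bases before the start site. Tsc22d3 lies at chrX:140600523-140600772 on the minus strand, with the hexamer in capitals, 185 to 180 bases before it. These matches are a description of the letters, and binding of the receptor was not measured.
Sgk1: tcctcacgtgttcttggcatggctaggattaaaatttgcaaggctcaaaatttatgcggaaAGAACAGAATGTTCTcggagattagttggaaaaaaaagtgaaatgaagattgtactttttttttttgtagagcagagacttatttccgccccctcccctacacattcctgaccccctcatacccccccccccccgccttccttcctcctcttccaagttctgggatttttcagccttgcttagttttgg
Tsc22d3: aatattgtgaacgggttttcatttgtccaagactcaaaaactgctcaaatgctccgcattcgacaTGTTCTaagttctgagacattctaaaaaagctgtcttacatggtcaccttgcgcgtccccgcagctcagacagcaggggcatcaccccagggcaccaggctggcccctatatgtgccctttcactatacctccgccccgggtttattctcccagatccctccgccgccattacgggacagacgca

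The probes are 60 bases long, and 3 of them are shown because the reading of a gene turns on them. The Fkbp5 probe at position 351 of its transcript record lies far from the other usable Fkbp5 probe, at position 3462. The Txnip probe at position 1345 gave a larger difference than the one at position 2360. The Il1r2 probe at position 631 crosses at least 1 intron, since its ends lie 2948 bases apart on the genome, and it was not well above background. They are printed in lower case throughout, as the whole probe is the item, and exon and UTR annotation of mm9, the build of the probe coordinates, was not used here. The Fkbp5 probe lies at chr17:28574995-28575054 on the minus strand, the Txnip probe at chr3:96364206-96364265 and the Il1r2 probe at chr1:40168971-40171918, both on the plus strand.
Fkbp5: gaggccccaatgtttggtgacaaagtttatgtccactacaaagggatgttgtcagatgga
Txnip: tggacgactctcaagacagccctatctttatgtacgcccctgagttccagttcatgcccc
Il1r2: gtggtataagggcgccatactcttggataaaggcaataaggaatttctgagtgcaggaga

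No member was 2-fold apart between the heated and the control sample, and none reached the smaller threshold of 0.25 on the log2 scale (1.19-fold). A signal is the processed intensity of the scanner software. A difference is heat minus control of log2 signals, after each array's 75th percentile (604 and 620.5 on the heat and control array) was subtracted, averaged over the gene's probes well above background on both arrays. Of the 10 members 9 were measured in this way, through 15 probes. In the heated sample 5 members were higher and 4 lower, where 52.2% of all genes measured were higher. Their differences ran from -0.23 for Ddit4 to 0.25 for Tsc22d3, with a median of 0.066, against 0.0076 over all 18562 genes measured. Among all genes, 9.18% were higher and 8.72% lower by at least 0.25, and 0.21% and 0.453% by at least 1, so 17.9% and 0.663% lay past these thresholds in either direction. With 9 genes, a count of 0 is near these shares. At a lower threshold of 0.2, Tsc22d3 was higher and Ddit4 lower, where 13.1% of all genes were higher and 12.2% lower, 25.3% in all.

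**Figure D1:**
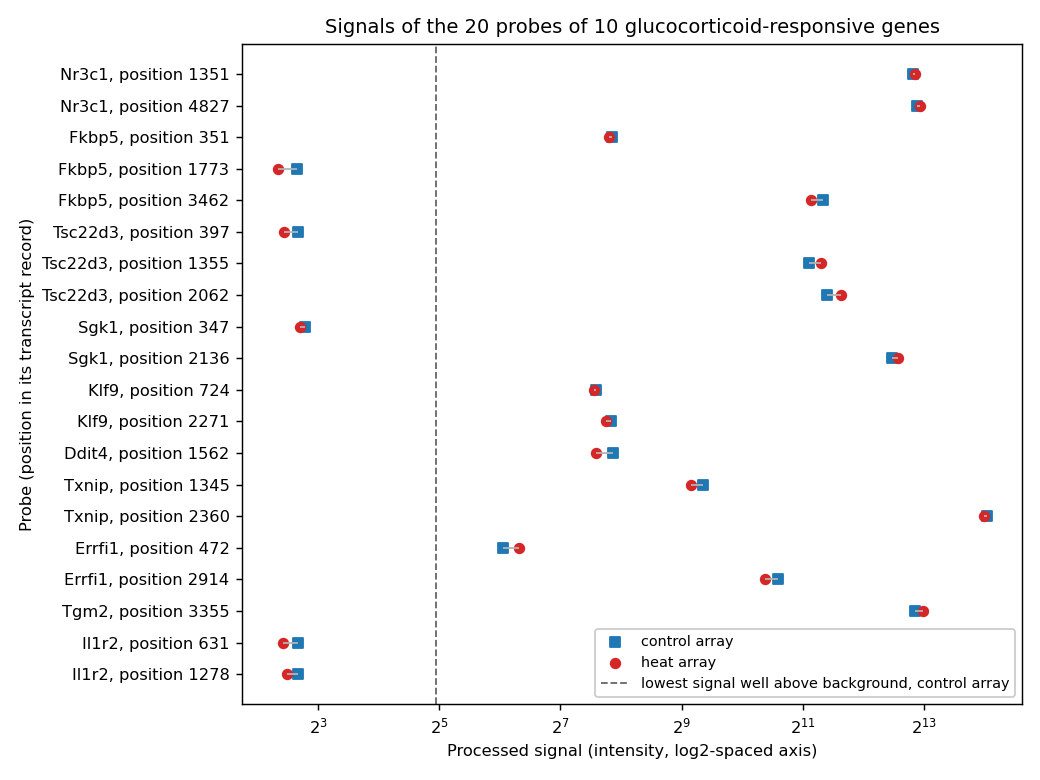
Processed signal (log2-spaced axis) of each of the 20 probes on the heat array (red circles) and the control array (blue squares), with the probe's position in its transcript record and a dashed line at the lowest signal well above background on the control array (31.0). The marks of each of the 15 usable probes lie close together, and the 5 probes left of the line include both Il1r2 probes.

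Nr3c1, which encodes the receptor itself, was measured by 2 probes with nearly the same result. At position 1351 its signal was 7426 in the heated and 7254 in the control sample. At position 4827 it was 7828 and 7573. Both probes were slightly higher on the heat array, and the log2 differences of 0.073 and 0.086 averaged 0.080 (1.06-fold). The scanner software gave each difference an error of 0.20, and 59.6% of all genes measured lay at least as far from 0. The receptor transcript was thus well above background in both samples, with a difference smaller than the software's error for it. For both Nr3c1 probes that error rests on 10% of the signal on each array. Repeated spots of 266 other probes with log2 signals of 12 or more gave a single-spot difference a median SD of 0.059. Both Nr3c1 differences exceed this SD, which holds the spread within an array and not that between samples. Without scaling between the arrays they were 0.034 and 0.048, below the SD.

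Fkbp5 encodes FKBP51, an HSP90 partner that lowers the receptor's affinity for hormone and is itself raised by the receptor. Its signal at position 351 was 223 in the heated and 230.3 in the control sample. At position 3462 it was 2257 and 2598. Both probes were lower on the heat array, by log2 differences of -0.0090 and -0.16, with a mean of -0.087. The probe for another Fkbp5 transcript, at position 1773 of its record, gave 5.02 and 6.24, not well above background. The mean moved to -0.20 when the mean spot signal minus local background was used, and to -0.16 with the brightest probe alone.

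Tsc22d3 encodes GILZ, a leucine zipper protein that carries part of the anti-inflammatory action of glucocorticoids. Its signal at position 1355 was 2529 in the heated and 2213 in the control sample. At position 2062 it was 3167 and 2712. Both probes were higher on the heat array, by 0.23 and 0.26 on the log2 scale, and the mean of 0.25 (0.247, 1.19-fold) was the highest among the members, just under the threshold. Among all genes measured, 9.40% were at least as high. Each of these probes lay past the software's error of 0.20, though without scaling the one at position 1355 did not, at 0.19. They lie at 137074801 to 137074860 and 137074094 to 137074153 of chromosome X (mm9). The third probe, for another transcript, gave 5.40 and 6.38 and was not well above background. Keeping such dim probes lowered the mean to 0.097.

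Sgk1 encodes a serum- and glucocorticoid-regulated kinase that acts on ion transport and cell survival, and it is the member with the 15-base element shown above. Its usable probe, at 21719390 to 21719449 of chromosome 10 (mm9), gave 6093 in the heated and 5704 in the control sample. The signal was higher on the heat array, with a log2 difference of 0.13 and a software error of 0.20. The sign did not hold: with normexp background correction of the mean spot signals it was -0.043 or -0.060, and with plain background subtraction -0.052. A probe for another Sgk1 transcript, at position 347, gave 6.46 and 6.84, below the lowest signal counted as well above background.

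Klf9, a zinc finger transcription factor raised by glucocorticoids in many tissues, was the member closest to 0. Its signal was 188 in the heated and 192 in the control sample at position 724 of a cDNA record, and 217 and 228 at position 2271. The log2 differences of 0.0082 and -0.036 had opposite signs and averaged -0.014. Of all genes measured, 91.9% lay at least as far from 0.

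Ddit4 encodes REDD1, an inhibitor of the growth kinase complex mTORC1 that glucocorticoids and other stresses raise, and it had the lowest value. Its single probe, at 59412486 to 59412545 of chromosome 10 (mm9), gave 193 in the heated and 232 in the control sample. The log2 difference was -0.23 (1.17-fold lower in the heated sample), with a software error of 0.21, and 9.88% of all genes measured were at least as low. For signals under 9 on the log2 scale, which holds for Ddit4, repeated spots of 12 other probes gave a single-spot difference a median SD of 0.24. With quantile normalization or with the authors' values Ddit4 passed the threshold, at -0.27, and with normexp it was -0.17 after quantile normalization and -0.13 with the 75th percentile.

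Txnip encodes the thioredoxin-interacting protein, which restrains glucose uptake. Its signal at position 1345 was 569 in the heated and 657 in the control sample. At position 2360 it was 16361 and 16886. Both probes were lower on the heat array, by log2 differences of -0.17 and -0.0069, and their mean was -0.088. The brighter probe alone left a value near 0.

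Errfi1 encodes MIG6, an inhibitor of the EGF receptor, and its 2 probes disagreed. At position 2914 of the RefSeq transcript, the signal was 1333 in the heated and 1540.2 in the control sample, a log2 difference of -0.17. At position 472 of a cDNA record, at 150229849 to 150229908 of chromosome 4 (mm9), it was 79.6 and 66.3, a difference of 0.30 with a software error of 0.26. The mean of 0.066 therefore stands for a probe below 0 and a probe above 0, 0.47 apart. Its sign did not hold: it was -0.17 with the brightest probe, among the brighter 50% of probes or with names from transcript records, and -0.010 with normexp and quantile normalization. Over the 4086 genes with 2 usable probes, the median gap between probes was 0.12 and the 95th percentile 0.53.

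Tgm2 encodes transglutaminase 2, a protein cross-linking enzyme of macrophages. Its single probe, at 157942275 to 157942334 of chromosome 2 (mm9), gave 8122 in the heated and 7377 in the control sample. The log2 difference was 0.18 (1.13-fold), with a software error of 0.20. With normexp and the 75th percentile it was 0.10. Il1r2, the decoy receptor that binds interleukin 1 without signalling, has no difference, since its probes gave 5.36 and 5.57 on the heat array and both gave 6.33 on the control array, not well above background.

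Ordered by difference, the members ran Tsc22d3, Tgm2, Sgk1, Nr3c1, Errfi1, Klf9, Fkbp5, Txnip and Ddit4. The largest gap between neighbours was 0.14, between Txnip and Ddit4. It is less than the software's error of a single difference (0.20 to 0.26), so no neighbours stood apart beyond that error. Spots repeated on an array spread less at bright probes. Their single-spot difference had a median SD of 0.064 at log2 signals of 9 to 12 and 0.059 at 12 or more. The differences of Nr3c1, Sgk1 and Tgm2, from probes at 12 or more, were larger than 0.059 in the main setting. For Nr3c1 this did not hold without scaling (0.041) or with normexp and the 75th percentile (0.055). Sgk1 fell below 0 with normexp (-0.043 and -0.060) and with mean minus background (-0.052). The ends of the order were 0.48 apart. Of the 15 usable probes, 8 were higher and 7 lower on the heat array. Past their own software error lay 4, namely both Tsc22d3 probes, the Ddit4 probe and the dim Errfi1 probe. Without scaling, the Tsc22d3 probe at position 1355 and the dim Errfi1 probe fell within it. The Txnip probe at position 1345 and the Errfi1 probe at position 2914 then passed it, each at -0.21. The median of the members had no settled sign: it was below 0 in 5 settings, between -0.057 with normexp and the 75th percentile and -0.0069 with the brightest probe per gene.

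**Figure D2:**
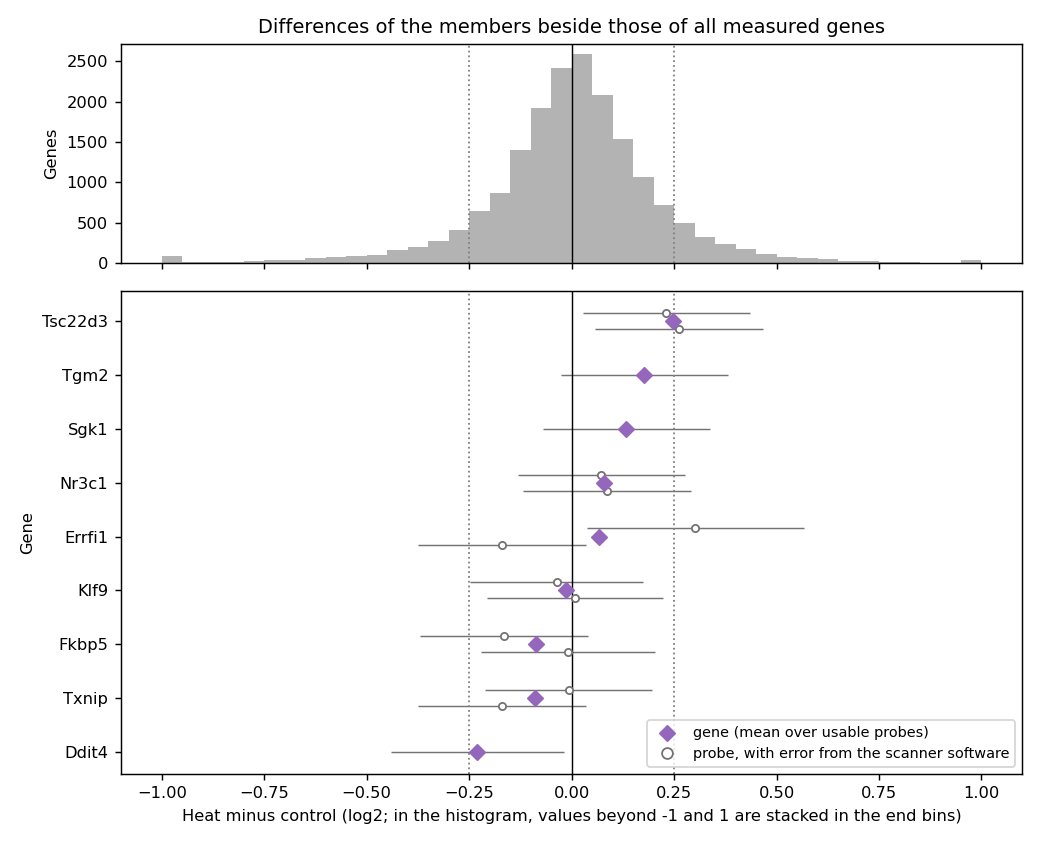
Heat minus control on the log2 scale. The histogram shows all 18562 genes measured, and the points below show each usable probe of the 9 measured members with the scanner software's error, with the gene's mean as a diamond and dotted lines at -0.25 and 0.25. The diamonds lie between -0.23 and 0.25, inside the bulk of the histogram, and the Errfi1 probes lie on opposite sides of 0.

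The chaperones that hold and carry the receptor were lower in the heated sample in 13 of 16 cases, by small amounts, where 8866 of all 18562 genes measured were lower. Without scaling these counts were 15 of 16 and 10873 of 18562. Their median was -0.052, all 16 were measured, and 1, Ppid, was lower by at least 0.25, against 8.72% of all genes. Ppid encodes cyclophilin 40, an HSP90 partner of the receptor complex, and had -0.28, with 3 probes between -0.34 and -0.23. Fkbp4 encodes FKBP52, which favours the receptor's move to the nucleus and competes with FKBP51, and had -0.18, with 3 probes between -0.20 and -0.17. Both genes kept their sign in all 13 alternative settings. Ptges3, the p23 cochaperone, had -0.11, Dynll1, a dynein light chain, -0.14, Hsp90aa1 -0.085 and Hsp90ab1 -0.0036. Over the settings, 11 to 15 of the 16 were lower.

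Coactivators and corepressors of the receptor were 11 higher and 5 lower of 16 measured, where 52.2% of all genes measured were higher. Their median was 0.046, and 2 were higher by at least 0.25, against 9.18% of all genes. Ncoa1, the steroid receptor coactivator SRC-1, had 0.38, with probes at 0.26 and 0.51. Ncoa3 had 0.16, and Med1 of the mediator complex had 0.14 from 4 probes between -0.25 and 0.78. The split was 8 higher and 8 lower with normexp and quantile normalization.

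Among genes of steroid metabolism and export, all 5 measured of 8 had values below 0, where 8866 of all 18562 genes did. Their median was -0.085, and 2 were lower by at least 0.25, against 8.72% of all genes. Akr1c18, a hydroxysteroid dehydrogenase that inactivates progesterone, had -0.79, with a signal of 404 in the heated and 720.0 in the control sample. H6pd, which supplies NADPH to the enzyme that regenerates active glucocorticoid, had -0.27. Srd5a1, a steroid reductase, had -0.085 and the exporter gene Abcb1b -0.060. Abcb1a lay at -0.00046, and 4 of the 5 were lower in 4 of the alternative settings. Hsd11b1, the regenerating enzyme itself, was well above background on the control array only, at a signal of 37.7 against 26.3. This is a ratio of 1.40 after scaling and no bound, since 26.3 is above the lowest signal well above background on the heat array (24.9). The bounds given below as at least so many fold take, on the array where a probe is dim, the higher of the lowest signal well above background and the probe's own signal.

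Further genes known to be raised by glucocorticoids were 17 higher and 13 lower of 30 measured, where 52.2% of all genes measured were higher. Their median was 0.038. By at least 0.25, 4 were higher and 1 was lower, against 9.18% and 8.72% of all genes. Mt2, a metallothionein, had 0.44, with a signal of 15260.5 in the heated and 11522 in the control sample, and Cebpd, a transcription factor of myeloid cells, had 0.43, at 14712 and 11210. Their values lay between 0.39 and 0.49 in all 13 alternative settings. Fpr1, a formyl peptide receptor, had 0.68 at signals of 126 and 80.6, and 0.32 in the lowest setting. Sphk1, a sphingosine kinase, had -0.46. Neither array had the macrophage scavenger receptor gene Cd163 or Pdk4 well above background.

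Inflammatory genes known to be lowered by glucocorticoids were 8 higher and 6 lower of 14 measured, where 52.2% of all genes measured were higher. Their median was 0.0047. The 6 others, Il1a, Il1b, Il6, Csf2, Il12a and Il12b, were not well above background on either array. By at least 0.25, 4 were higher and 1 was lower, against 9.18% and 8.72% of all genes. The neutrophil chemokine genes Cxcl2 and Cxcl1 had 0.69 and 0.59, at signals of 93.8 against 59.7 and 117 against 79.4, and 0.36 and 0.32 in their lowest settings. Nos2, the inducible nitric oxide synthase, had 0.50, at 412 and 299. Cxcl10, an interferon-induced chemokine, had -0.46, with probes at -0.65 and -0.27, and lay between -0.65 and -0.29 over the settings. Cxcl2, Cxcl1 and Nos2 each rest on 1 probe with log2 signals under 9, where repeated spots gave a median SD of 0.24. Among the brighter 50% of probes, 10 genes of the list were measured, of which 1 was higher and 1 lower by at least 0.25. Of all 10837 genes measured there, 380 were higher and 421 lower.

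Close relatives of the members were 7 higher and 4 lower of 11 measured, where 52.2% of all genes measured were higher. Their median was 0.014, and 2 were higher by at least 0.25, against 9.18% of all genes. Tsc22d4 had 0.37, with 4 probes between 0.061 and 0.83, and Tsc22d2 had 0.39, with 3 probes between -0.11 and 1.34. In their lowest settings they had 0.061 and -0.056. Klf13 had 0.15 and Arrdc3, an arrestin related to Txnip, -0.14. Nr3c2, the mineralocorticoid receptor that also binds glucocorticoids, was well above background on the control array only, at 1 of its 3 probes, with a signal of 68.5 against 5.20, at least 2.68-fold. Ddit4l, the paralogue of Ddit4, was likewise, at 96.6 against 5.05, at least 3.78-fold. For Tgm1, a transglutaminase, it was the heat array alone that passed, at 28.2 against 19.8, which gives no bound. Each bound rests on 1 spot per array. Probes that passed in a single sample were not confined to these genes. Of all 56605 probes, 30471 passed with heat and 29460 for the control, while 28755 passed in both samples. How many of all genes reach such a bound is not given here.

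**Figure D3:**
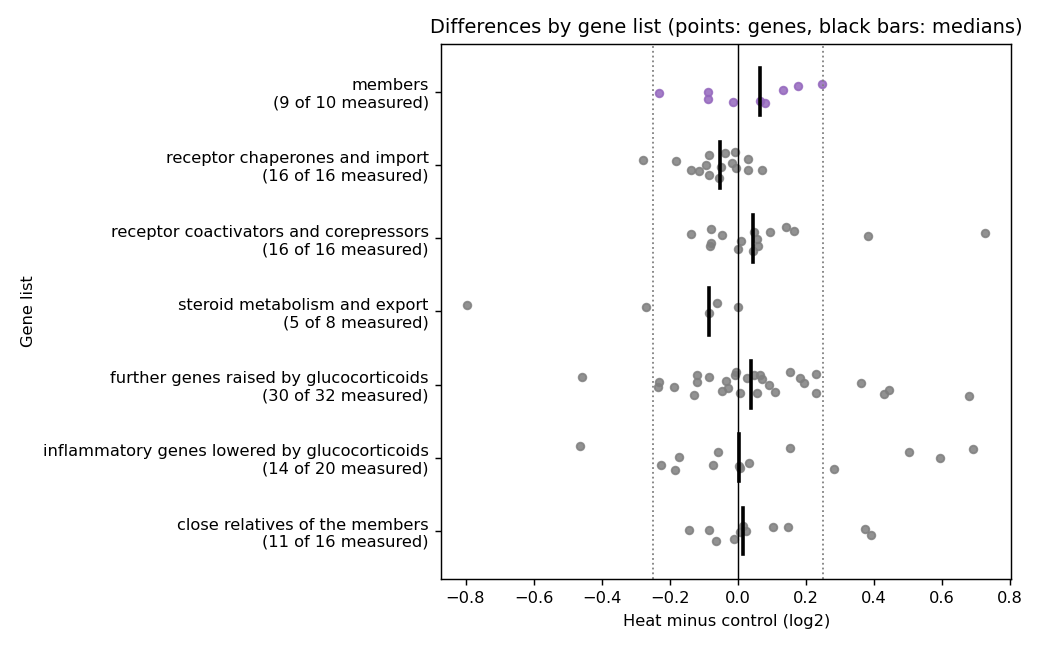
Heat minus control on the log2 scale for each measured gene of the members (purple) and of 6 lists of pathway genes (grey), with the list's median as a black bar and dotted lines at -0.25 and 0.25. The members lie between the dotted lines, the medians of the 6 lists lie between -0.085 and 0.046, and the genes past the lines include Cxcl2 at 0.69 and Akr1c18 at -0.79.

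**Figure D4:**
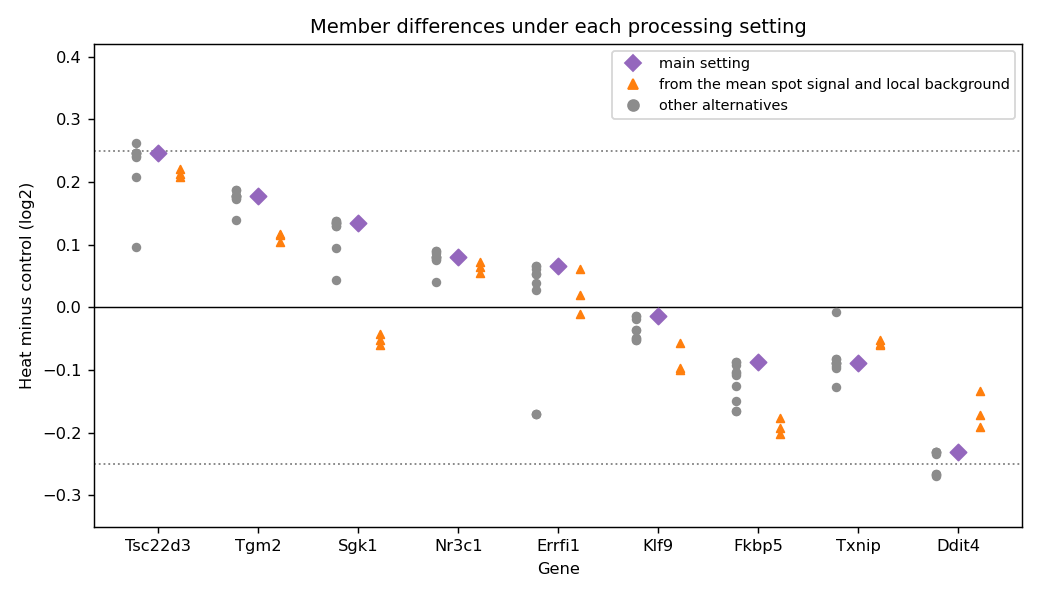
Difference of each measured member under the main setting (purple diamonds), under 3 settings built on the mean spot signal and local background (orange triangles) and under the other alternatives (grey circles), on the log2 scale with dotted lines at -0.25 and 0.25. Sgk1 lies at 0.13 in the main setting and below 0 in the settings marked by triangles, and Tsc22d3 lies above 0 throughout, from 0.097 to 0.26.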

How the data were processed

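Per the file headers, the scanner files come from Agilent Feature Extraction 10.7.1.1, while the submitters' processing notes name version 9.1. The deposited values used are linear intensity values of the green channel (processed signal, its error, mean signal and local background), and the flags for outlier, saturation and signal well above background are other values that the same software gave, per the file headers. The authors' deposited value table holds log2 values, with the same median of 5.26 in both columns, and correlated with log2 processed signals at r of 0.9999 on each array.

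Control spots and outlier spots (168 in the heated and 149 in the control sample, 0 at a member) were left out, log2 signals were averaged over a probe's spots, and each array's 75th percentile was subtracted. The flag for signal well above background had to be set for more than 0.5 of a probe's spots. A gene is a gene name of the files, and its difference is the mean over its probes that passed this on each array (28755 probes did). Depth is not defined for arrays, and their number, 1 per group, limits the precision. Thresholds were 0.25 and 1 on the log2 scale. Named genes are all members, the 4 largest differences of each pathway list and partners of the receptor, and further list genes are named for not being well above background, or for lying at a bound or near 0, which was seen in the values. A gene that this rule names is not reported here. The members and lists were chosen with earlier results of these data known. The steps were tested on simulated data with planted shifts larger than any member's difference, so differences as small as the members' were not tested. Python 3.11.15 was run with pandas 2.3.3, numpy 2.4.6 and matplotlib 3.10.9, and normalization used limma 3.58.1 and data.table (version 1.17.8) under R 4.3.3.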

Additional observations from a re-analysis of the deposited data

How the results depend on the processing

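No paired analysis was possible because each group held 1 array, which also left no replicate to leave out. The values were recomputed under 12 other settings and under 2 chosen after seeing the data, no scaling between arrays and a threshold of 0.2. No member passed 1 in any of them, and Nr3c1, Fkbp5, Tsc22d3, Klf9, Ddit4, Txnip and Tgm2 kept their sign in each that measured them. Sgk1 and Errfi1 did not, and Errfi1 went from 0.066 to -0.17 with the brightest probe, among the brighter 50% of probes and with names from transcript records, where its dimmer probe drops out, and to -0.010 with normexp and quantile normalization. Other values are given where they moved by more than the spread of repeated spots. Where not stated, the cause was not tested. With normexp and quantile normalization, the values were -0.19 for Fkbp5, -0.043 for Sgk1 and 0.12 for Tgm2, and the median of the members was -0.043. With normexp and the 75th percentile, they were -0.18, -0.060, 0.10 and -0.057, and with mean minus background -0.20, -0.052, 0.12 and -0.052. With the brightest probe per gene, Fkbp5 had -0.16, Txnip -0.0069 and the members' median was -0.0069. Fkbp5 also had -0.16 among the brighter 50% of probes. With names from transcript records, the members' median was -0.036, since these drop a probe each of Klf9 and Errfi1. With dim probes kept, Tsc22d3 had 0.097, Sgk1 0.044 and the median of all genes was -0.099, since probes at background enter.

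Counts of members past 0.25 moved from 0 to 1 higher with the brightest probe (Tsc22d3), to 1 lower with the authors' values, no scaling, cyclic loess or quantile normalization (Ddit4), and to 1 higher and 1 lower at a threshold of 0.2, where 13.1% and 12.2% of all genes lay. The median of steroid metabolism genes was -0.25 with dim probes kept and -0.24 among the brighter 50% of probes, with the brightest probe or with transcript names, and that of inflammatory genes -0.066 with dim probes kept and -0.12 among the brighter 50%. Counts of list genes past 0.25 moved in both directions. Among the brighter 50%, inflammatory genes higher went from 4 to 1, close relatives higher from 2 to 0 and coactivators and corepressors higher from 2 to 1. Steroid metabolism genes lower went from 2 to 1 with mean minus background. Further raised genes that were lower went from 1 to 4 with dim probes kept. Genes higher and lower by at least 0.25 were 632 and 903 with normexp and quantile normalization, 887 and 741 with normexp and the 75th percentile, 4470 and 9301 with dim probes kept, 380 and 421 among the brighter 50% and 935 and 971 with transcript names (fewer genes measured in the last 2), against 1704 and 1619. By at least 1 they were 11 and 27, 12 and 24, 727 and 1008, 3 and 14, and 24 and 39, against 39 and 84. Without scaling, 7689 genes were higher and 10873 lower, against 9696 and 8866. A signal near or below background limits what can be said of Il1r2, Hsd11b1, Nr3c2, Ddit4l and Tgm1, among others.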
